A study of Mus musculus with 6 samples.

Results

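Heat shock proteins and DNAJ chaperones were examined in amygdala neurons that had been isolated from male mice of the strain C57BL/6J. All genes whose symbols begin with Hspa, Hspb, Hspd, Hspe, Hsph or Hsp followed by a digit, or with Dnaja, Dnajb or Dnajc followed by a digit, were taken. This gave 75 of the 35976 genes counted, 29 with Hsp symbols and 46 with Dnaj symbols. Every mouse carried an adeno-associated virus with Cas9 under the astrocyte promoter GfaABC1D, with guides against Rosa (sgRosa, the control, 3 libraries) or against Egfr, the epidermal growth factor receptor gene (sgEgfr, 3 libraries). The edited cells were therefore astrocytes, and the sequenced cells were neurons. All mice, controls included, had over 2 weeks of viral expression, 7 days of restraint in a tube, fear conditioning (1 day) and extinction (3 days). No unstressed group is part of these libraries. Ages were not given, and the protocol also names guides delivered to microglia, which the labels of these 6 libraries do not mention.

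Heat shock proteins are molecular chaperones that bind unfolded stretches of other proteins. HSP70 proteins (Hspa genes) hold and release such clients in cycles of ATP hydrolysis. J-domain proteins (Dnaj genes) bring clients and start the hydrolysis, and HSP110 proteins such as Hsph1 reset the cycle by nucleotide exchange. HSP90 proteins finish the folding of kinases and steroid receptors, and small heat shock proteins (Hspb genes) keep clients from aggregating. Heat shock factor HSF1 drives the inducible genes through heat shock elements, while the unfolded protein response drives the genes of the endoplasmic reticulum. In nerve terminals the constitutive HSP70 Hspa8 works with Dnajc5 on synaptic vesicles and with Dnajc6 in the removal of clathrin coats.

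The libraries held between 2348897 and 10152812 counts, and heat shock and DNAJ genes took between 0.512% and 1.01% of them. Egfr itself was at 1, 26 and 23 counts in sgRosa and 6, 18 and 6 counts in sgEgfr, a log2 fold change of -0.64 (SE 1.01, edgeR adjusted p = 0.917). At counts this low, in libraries of neurons that also held RNA of astrocytes, these values do not check the editing. Pan-neuronal markers, 10 of 10 of them tested, averaged between 6.54 and 7.89 log2 CPM per library (CPM is the count relative to the library total, scaled by the trimmed mean of M values, TMM), and all 10 had positive log2 fold changes (median 0.52). RNA of other cells was present too. Markers of astrocytes, the edited cells (8 of 8 tested, 7 with negative log2 fold changes, median -0.16), averaged 4.48 log2 CPM in sgEgfr replicate 3 against 5.64 to 6.63 in the other 5 libraries. The oligodendrocyte markers averaged between 9.18 and 11.50 log2 CPM. Of the 8 oligodendrocyte markers all had negative log2 fold changes (median -0.83), and of the 7 microglial markers all had positive ones (median 1.35, library means 2.06 to 5.79 log2 CPM). The microglial mean was highest in sgEgfr replicates 1 (5.21) and 2 (5.79), yet lowest of all in sgEgfr replicate 3 (2.06). None of these lists held a gene that passed the edgeR test, and the groups overlapped in each list's mean. Their part in the values below was not tested. Where the pan-neuronal mean is named as a covariate, it comes from these same libraries and was 0.59 log2 CPM higher in sgEgfr. That fit does not separate neuron content from group. Choroid plexus markers averaged 6.95 in sgRosa replicate 3 and 6.69 in sgEgfr replicate 1, while elsewhere they averaged 0.783 to 2.30. Ciliated ependymal markers (5 of 6 tested, all 5 with negative log2 fold changes) averaged 4.7 in sgRosa replicate 2 and 1.1 to 3.4 elsewhere. The share of transcripts encoded by the mitochondrial genome was 29.8% in sgRosa replicate 1 and at most 15.7% in the other libraries. In bulk RNA of this kind, fewer cells of a type and less RNA per cell cannot be told apart. The labels do not say whether the libraries of a group came from separate mice, and the tests compare only the spread among these 6 libraries, which may be technical.

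Of the 75 genes 64 had enough counts to be tested, and none differed between sgEgfr and sgRosa when tested by quasi-likelihood in edgeR, with p-values adjusted after Benjamini and Hochberg over all 13159 tested genes (smallest adjusted p = 0.781). The share called over all genes was 0%. By limma-voom with quality weights for the libraries 0 of the 64 passed as well. By DESeq2 0 passed of those given an adjusted p, which 11 of the 64 were not. At an unadjusted p under 0.05 there were 5 of 64 (7.81%), Hspa1b, Hspa4l and Dnajc18 toward higher and Dnajc4 and Dnajc19 toward lower values in sgEgfr, where the share over all tested genes was 6.16% (3.23% toward higher and 2.93% toward lower values). That count was 4 by DESeq2 (5.99% over all genes) and 11 by limma-voom, where it was 15% over all genes. It was 13 without sgRosa replicate 3 (20.4% of all genes), 2 (4.34%) without sgRosa replicate 1 and 1 without each of sgEgfr replicates 1 to 3 in turn (2.85%, 4.08% and 2.81% of all genes). The groups did not overlap for 11 of the 64 (17.2%), 3 higher and 8 lower in sgEgfr, where the share over all tested genes was 13.4% (5.8% higher and 7.6% lower). Both shares lie near those of all genes, so these counts are no result about chaperones. Of the 64 log2 fold changes 28 were positive (46.3% over all genes) and 36 negative (53.7% over all genes). The median was -0.050 over the 64 genes and -0.038 over all tested genes, and 53 of the 64 lay within 0.5 of zero. None lay beyond 1 in either direction.

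**Figure D1:**
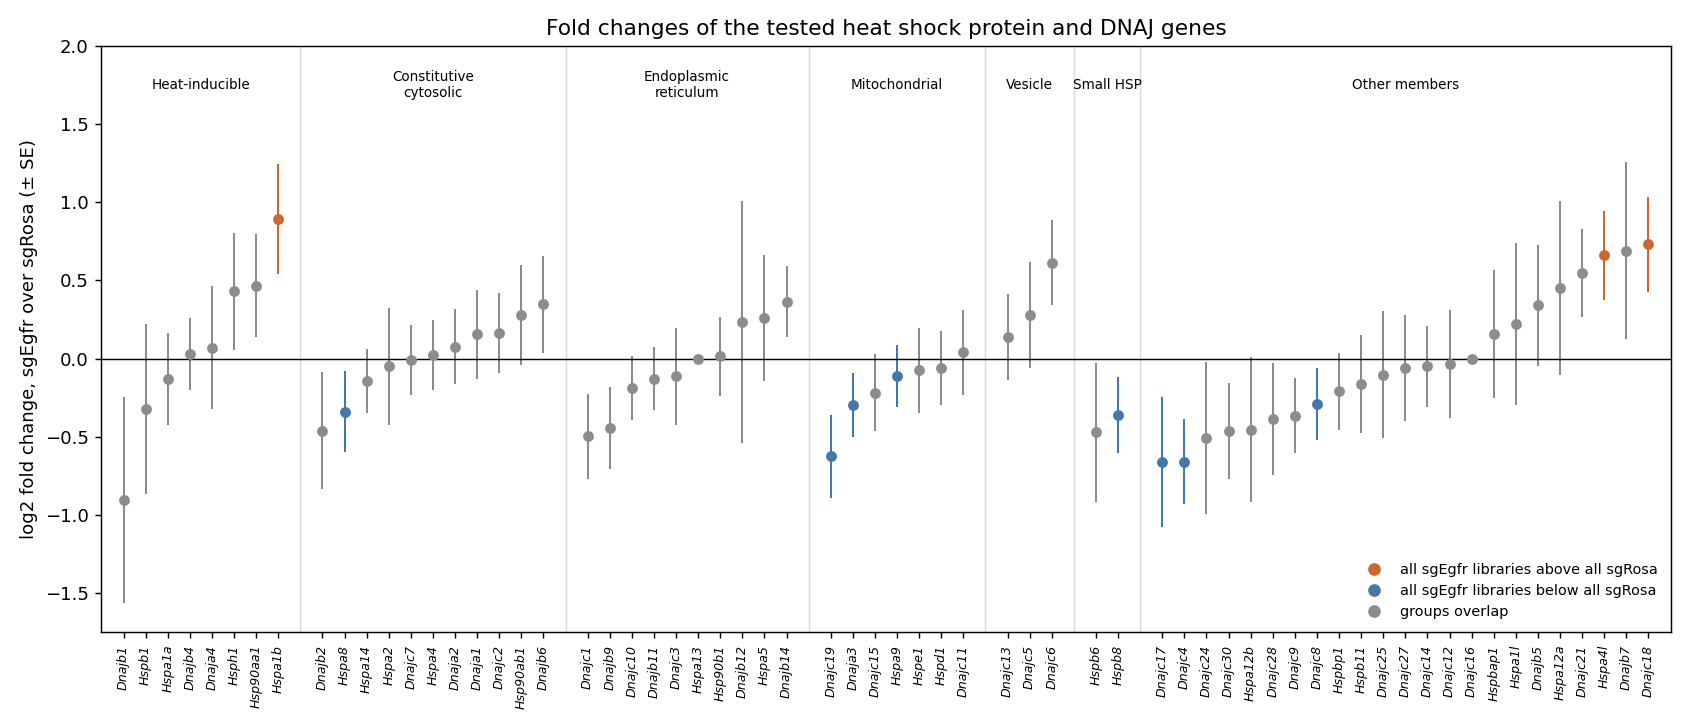
Log2 fold change of sgEgfr over sgRosa (vertical axis, ± SE from the edgeR fit) for the 64 tested genes, sorted within functional class. Points in colour mark the 11 genes whose 3 sgEgfr libraries all lay above (orange, 3) or below (blue, 8) the 3 sgRosa libraries; no gene passed the test, and the 2 genes with a log2 fold change under 0.01 in size have no error bar.

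The 11 genes that were too low to test were Hspb2, Hspb3, Hspb7, Hspb9, Dnajb3, Dnajb8, Dnajb13, Dnajc5b, Dnajc5g, Dnajc22 and the pseudogene Dnajc19-ps. Dnajc22 and Dnajc5g had 0 counts in all 6 libraries, which allows up to between 0.270 and 1.25 CPM per library (3 counts, counting error only). The highest value among the 11 was 5.85 CPM, for Dnajc5b in sgRosa replicate 2.

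Per kilobase of exon, the gene with the highest mean over the 6 libraries was Hsp90ab1, the constitutive cytosolic HSP90, at 501 CPM per kilobase (range over libraries 340 to 564). It was followed by Hspa5, the HSP70 of the endoplasmic reticulum also known as BiP, at 243 (116 to 319). Dnajb1, the main heat-inducible J-domain protein, stood at 207 with the range 69.9 to 506. Hspa8 (126), Hsp90aa1 (110), Hsp90b1 (100.2) and Hspa1a (84.2) came next. The libraries of Hsp90ab1 lay above all those of Hspa5, while from Hspa5 down to Hspa1a the ranges of neighbours in this order overlapped (Hspa8 102 to 155, Hsp90aa1 60.3 to 144, Hsp90b1 83.8 to 115, Hspa1a 65.7 to 109). Hspa1b stood at 8.35.

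The first comparison asks whether the inducible members, which report a heat shock response, differed between groups while the constitutive ones did not. The 8 heat-inducible genes were Hspa1a, Hspa1b, Hsph1, Hsp90aa1, Dnajb1, Dnajb4, Dnaja4 and Hspb1. Of these 5 had positive and 3 negative log2 fold changes (median 0.049, range -0.91 to 0.89). The 11 constitutive cytosolic genes had 6 positive and 5 negative values (median 0.025, range -0.46 to 0.35). Within each library, the mean log2 CPM of the inducible genes minus that of the constitutive genes was -0.46, -0.19 and -0.38 in sgRosa and -0.35, 0.031 and -0.37 in sgEgfr. The groups overlapped, with sgEgfr replicate 2 highest and sgRosa replicate 1 lowest. The difference between groups was 0.12 (SE 0.15), and it was -0.015 without sgEgfr replicate 2, 0.058 without sgRosa replicate 1 and 0.042 without Hspa1a and Hspa1b.

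**Figure D2:**
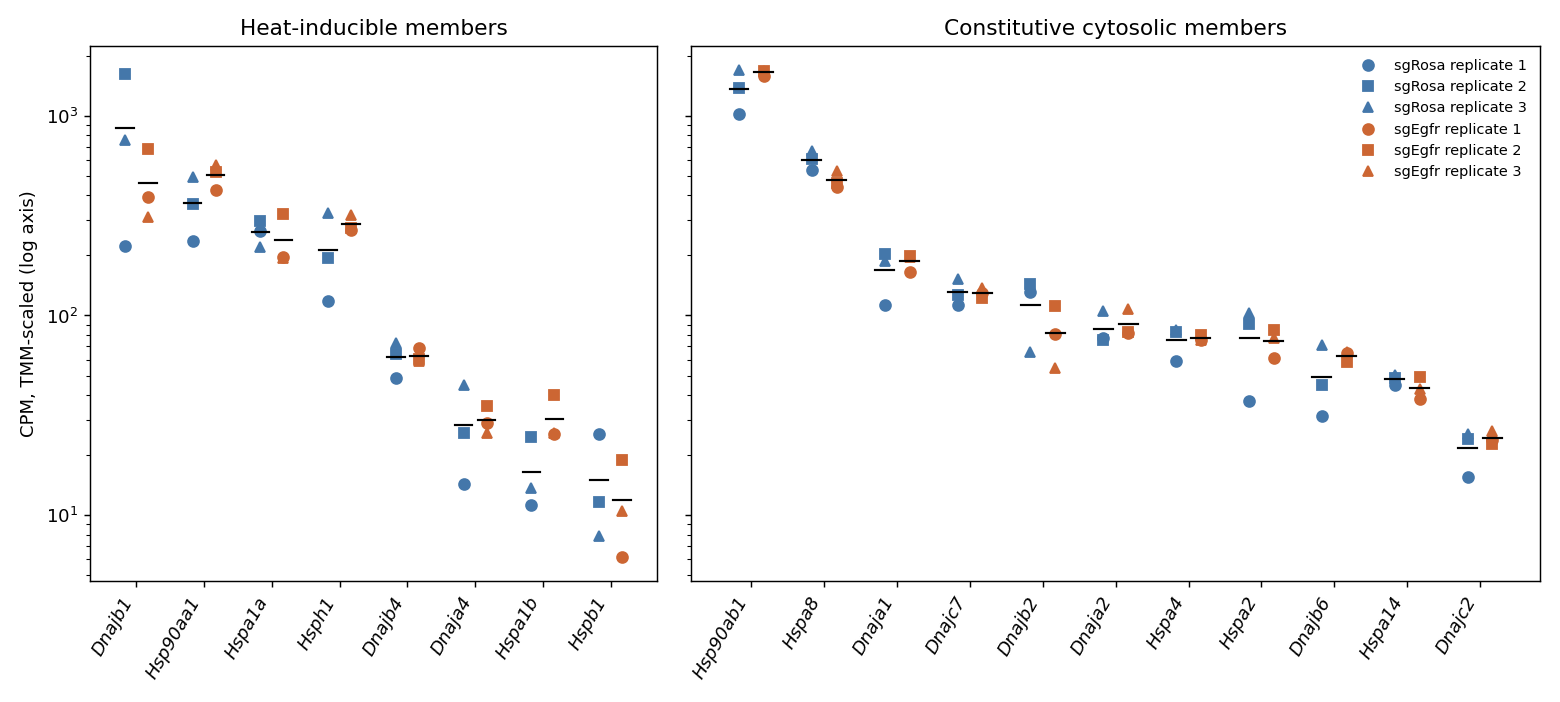
TMM-scaled CPM (vertical log axis) of the 8 heat-inducible genes (left) and the 11 constitutive cytosolic genes (right) in each library, with a bar at each group's mean. Blue symbols are sgRosa and orange symbols sgEgfr; Dnajb1 spans 224 to 1620 CPM within sgRosa alone, and Hspa1b is the inducible gene whose groups do not overlap.

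Dnajb1 varied most between libraries of 1 group among the inducible genes. It was at 224, 1620 and 754 CPM in sgRosa and at 390, 685 and 311 CPM in sgEgfr. The spread within sgRosa covered the whole range of sgEgfr, and sgRosa replicate 2 stood above every other library. Its log2 fold change was -0.91 (SE 0.66, adjusted p = 0.815) and became -0.024 without sgRosa replicate 2. Immediate early genes, which respond to activity and to tissue dissociation, had their highest mean in that library too, at 9.30 log2 CPM against 7.42 to 8.39 in the other 5. They were second highest in sgRosa replicate 1 (8.39), where Dnajb1 was lowest. Markers of ciliated ependymal cells averaged 1.1, 4.7 and 3.2 log2 CPM in sgRosa and 2.0, 3.4 and 1.5 log2 CPM in sgEgfr. Their mean, like Dnajb1, was highest in sgRosa replicate 2 and lowest in sgRosa replicate 1. The part of either list in the Dnajb1 values was not tested.

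Hsp90aa1, the inducible HSP90, was at 237, 360 and 496 CPM in sgRosa and 425, 522 and 564 CPM in sgEgfr. Hsph1 was at 118, 193 and 325 CPM in sgRosa and 267, 274 and 317 CPM in sgEgfr. For both genes sgRosa replicate 1 was lowest, and sgRosa replicate 3 lay among the sgEgfr libraries for Hsp90aa1 and above them for Hsph1. Their log2 fold changes were 0.47 (SE 0.33) and 0.43 (SE 0.37), with adjusted p of 0.811 and 0.840. Without sgRosa replicate 1 the values were 0.26 and 0.17, and without sgRosa replicate 3 they were 0.76 and 0.88. The pan-neuronal mean was 6.54 and 6.56 log2 CPM in sgRosa replicates 1 and 2 and between 7.09 and 7.89 in the other 4 libraries. With that mean as a covariate the values of Hsp90aa1 and Hsph1 were 0.22 and 0.081.

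The J-domain genes Dnaja4 and Dnajb4 showed no separation of the groups. Dnaja4 was at 14.3, 25.9 and 44.7 CPM in sgRosa and 28.8, 35.3 and 25.7 CPM in sgEgfr, a log2 fold change of 0.070 (SE 0.39). Dnajb4 was at 48.4, 63.9 and 72.9 CPM in sgRosa and 69.1, 60.7 and 59.2 CPM in sgEgfr, a log2 fold change of 0.029 (SE 0.23). Without sgRosa replicate 1 these values were -0.22 and -0.098. Hspb1, a small heat shock protein also expressed in vessels, was at 25.6, 11.7 and 7.83 CPM in sgRosa and 6.18, 19.0 and 10.5 CPM in sgEgfr. Its log2 fold change of -0.32 (SE 0.54) turned to 0.34 without sgRosa replicate 1, the library in which endothelial markers (6 of 6 tested) were highest, at 8.41 log2 CPM against 6.29 to 7.48 in the others. The part of vessel RNA in Hspb1 was not tested.

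Hspa1a and Hspa1b are near-identical copies of the inducible HSP70 gene that lie side by side on chromosome 17 (mm10; Hspa1a at 34969190 to 34972156 and Hspa1b at 34956436 to 34959238, both on the minus strand). Their promoters are shown because the copies are alike before their start sites as well as within the transcript. The bases shown lie in no annotated exon, so only the likeness within the transcript bears on how the counts can be read. The 250 bases before each start (RefSeq, GRCm38.p6, minus strand) are identical at 247 positions. Capitals mark the 3 positions that differ, which are C44T, T47C and T249G counted from 1 at the 5′ end of the window, with the Hspa1a base first.
Hspa1a, chr17:34972157-34972406: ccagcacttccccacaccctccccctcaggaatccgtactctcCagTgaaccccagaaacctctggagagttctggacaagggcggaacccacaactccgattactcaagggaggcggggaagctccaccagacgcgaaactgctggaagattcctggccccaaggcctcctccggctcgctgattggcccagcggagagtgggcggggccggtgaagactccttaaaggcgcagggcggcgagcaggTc
Hspa1b, chr17:34959239-34959488: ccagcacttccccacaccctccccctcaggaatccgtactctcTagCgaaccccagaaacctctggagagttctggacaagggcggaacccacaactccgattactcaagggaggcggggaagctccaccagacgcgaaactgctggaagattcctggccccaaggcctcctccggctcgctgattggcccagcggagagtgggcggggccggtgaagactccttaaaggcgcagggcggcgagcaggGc

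Hspa1b was at 11.2, 24.6 and 13.7 CPM in sgRosa and 25.4, 39.9 and 25.7 CPM in sgEgfr, so that the lowest sgEgfr library exceeded the highest sgRosa library. The gap between the nearest libraries, sgRosa replicate 2 and sgEgfr replicate 1, was small. Its log2 fold change was 0.89 (SE 0.35, edgeR adjusted p = 0.781). Hspa1a, which held most counts of the pair, was at 266, 296 and 221 CPM in sgRosa and 196, 324 and 195 CPM in sgEgfr, with a log2 fold change of -0.13 (SE 0.29) that ranged from -0.40 without sgEgfr replicate 2 to 0.012 without sgEgfr replicate 3. The sum of the copies was 278, 321 and 235 CPM in sgRosa and 221, 364 and 221 CPM in sgEgfr, and the groups overlapped.

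Hspa1b made up 4.05%, 7.68% and 5.83% of the counts of the pair in sgRosa replicates 1 to 3 and 11.5%, 11.0% and 11.7% in sgEgfr replicates 1 to 3. The exact 95% binomial intervals ran from 2.91% to 9.80% over the sgRosa libraries and from 9.13% to 14.6% over the sgEgfr libraries, for counting error only. The group means were 5.85% ± 1.82 and 11.4% ± 0.360 (SD, n = 3 each; exact two-sided permutation p = 0.1, the smallest that 3 against 3 can give). This share was examined after its values were seen. Of the 50-base stretches of the Hspa1a transcript 58.8% also occur in Hspa1b, and 62.3% the other way. Read length was not taken into account. Reads lying wholly within shared sequence could not be assigned to one copy. How such reads were counted is not known from the labels, and the values of the single copies are uncertain for that reason.

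Ratios within a library do not depend on scaling. The counts of Hspa1a and Hspa1b together were 51.7%, 52.8% and 35.1% of those of their constitutive relative Hspa8 in sgRosa and 50.2%, 78.7% and 41.6% in sgEgfr. The log2 ratio was 0.26 higher in sgEgfr (SE 0.33; exact two-sided permutation p = 0.6, adjusted p = 0.6 over 2 ratios), and -0.0028 without sgEgfr replicate 2. The counts of Hsp90aa1 were 23.2%, 26.3% and 29.4% of those of Hsp90ab1 in sgRosa and 26.8%, 31.0% and 33.7% in sgEgfr. The log2 ratio was 0.21 higher in sgEgfr (SE 0.14; exact permutation p = 0.2, adjusted p = 0.4). For both ratios the groups overlapped, and with 3 against 3 libraries p could not go below 0.1.

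**Figure D3:**
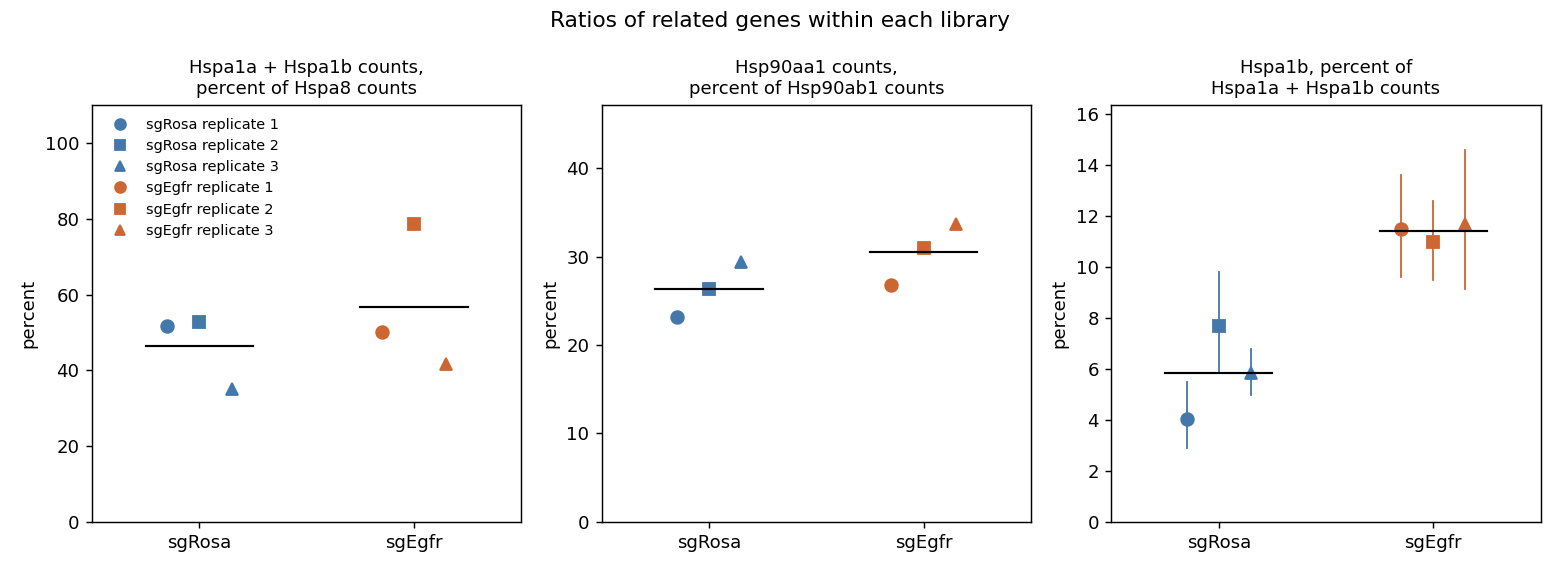
Counts of one gene as a percentage of a related gene (vertical axes, percent, from 0) in the 3 sgRosa (blue) and 3 sgEgfr (orange) libraries, with a bar at the mean of the percentages. The left and middle panels overlap between groups; in the right panel, where lines are exact 95% binomial intervals, the Hspa1b share lies at 4.05% to 7.68% in sgRosa and 11.0% to 11.7% in sgEgfr.

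Among the constitutive cytosolic genes, Hspa8 had non-overlapping groups. It was at 537, 607 and 668 CPM in sgRosa and 440, 463 and 530 CPM in sgEgfr, and the nearest libraries differed by less than the SD of either group. Its log2 fold change was -0.34 (SE 0.26, edgeR adjusted p = 0.820), and it ranged from -0.40 to -0.26 with each library left out in turn. Hsp90ab1 was at 1020, 1370 and 1690 CPM in sgRosa and 1580, 1680 and 1670 CPM in sgEgfr, with a log2 fold change of 0.28 (SE 0.32), which was 0.13 without sgRosa replicate 1 and 0.46 without sgRosa replicate 3. The sgRosa libraries spread widely, and the sgEgfr libraries lay near the top of that spread. The remaining 9 constitutive genes had log2 fold changes from -0.46 (Dnajb2) to 0.35 (Dnajb6), with overlapping groups. Without sgRosa replicate 3 the median of the class was 0.23, and that of the inducible class 0.38.

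The 10 genes listed as chaperones of the endoplasmic reticulum, all tested, had 4 positive and 6 negative log2 fold changes (median -0.058). No gene of this list had separated groups. Hspa5 was at 490, 1050 and 1260 CPM in sgRosa and 1050, 1350 and 961 CPM in sgEgfr. Again sgRosa replicate 1 was far below the other libraries, and the log2 fold change of 0.26 (SE 0.40) was -0.024 without it. Hsp90b1, the HSP90 of this compartment, was at 338, 403 and 465 CPM in sgRosa and 397, 424 and 398 CPM in sgEgfr, a log2 fold change of 0.015 (SE 0.25). Lower in the mean were the J-domain genes Dnajc1 (39.9 ± 9.05 against 28.1 ± 6.47 CPM) and Dnajb9 (61.2 ± 16.7 against 44.9 ± 6.47 CPM; SD, n = 3 each), with log2 fold changes of -0.50 (SE 0.27) and -0.44 (SE 0.26). Without sgRosa replicate 1 these were -0.33 and -0.18. Dnajb14, a J-domain protein of the same membrane, had a mean of 76.9 ± 12.7 against 99.0 ± 11.9 CPM (SD, n = 3 each), a log2 fold change of 0.36 (SE 0.23). None of these differences passed the edgeR test (adjusted p of 0.786, 0.791 and 0.798 for the 3 J-domain genes). Without sgRosa replicate 2 the median of the class was 0.14.

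Of the 7 genes listed as mitochondrial chaperones 6 had negative log2 fold changes (median -0.11). For 3 of the 7, Dnajc19, Dnaja3 and Hspa9, all sgEgfr libraries lay below all sgRosa libraries, against 7.6% over all tested genes. With 7 genes in the class, chosen with results known, this count was not tested. Dnajc19, a J-domain protein linked to protein import, was at 74.8, 45.1 and 46.0 CPM in sgRosa and 31.8, 39.5 and 36.2 CPM in sgEgfr. Here sgRosa replicate 1 was the highest library, in contrast to Hspa5 and Hsph1. The log2 fold change was -0.63 (SE 0.26, unadjusted p = 0.0463, edgeR adjusted p = 0.781) and -0.33 without sgRosa replicate 1. Exons of Dnajc19 overlap those of Fxr1, which runs the other way, and whether counting used strand was not given, so whether reads of both genes were kept apart is not known. This limit is not particular to Dnajc19. Of the 64 tested genes 22 overlap exons on the opposite strand, among them Dnaja3, Dnajc1, Dnajc17, Hspa1a and Hsp90b1. Hspd1 and Hspe1 overlap each other, and 9 tested genes overlap exons on the same strand.

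Hspa9, the mitochondrial HSP70 also called mortalin, was nearly level, at 99.0, 99.4 and 97.8 CPM in sgRosa and 93.4, 94.2 and 86.1 CPM in sgEgfr. The groups did not overlap, yet the log2 fold change was -0.11 (SE 0.20). The chaperonin genes Hspd1 and Hspe1, which encode HSP60 and its lid HSP10 and sit head to head on chromosome 1, had log2 fold changes of -0.059 (SE 0.23) and -0.075 (SE 0.27). Hspd1 was at 78.5, 88.1 and 120 CPM in sgRosa and 92.8, 90.6 and 91.6 CPM in sgEgfr, and Hspe1 at 27.0, 22.1 and 37.9 CPM and 23.9, 33.0 and 26.1 CPM. For both genes sgRosa replicate 3 was the highest library, and without it their log2 fold changes were 0.14 and 0.16.

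All 3 vesicle and endosome genes had positive log2 fold changes (median 0.28), with overlapping groups. Dnajc6, the neuronal auxilin, was at 84.4, 92.7 and 132 CPM in sgRosa and 190, 128 and 155 CPM in sgEgfr. Only sgRosa replicate 3 reached into the sgEgfr range. The log2 fold change was 0.61 (SE 0.27, edgeR adjusted p = 0.781). Dnajc5, the cysteine string protein of synaptic vesicles, was at 117, 122 and 239 CPM in sgRosa and 211, 154 and 216 CPM in sgEgfr, a log2 fold change of 0.28 (SE 0.34), which was 0.13 when sgRosa replicate 1 was left out and 0.70 when sgRosa replicate 3 was. With the pan-neuronal mean as a covariate Dnajc6 was at 0.34 and Dnajc5 at -0.14, and the median of the class was -0.016. In both genes the libraries with the lowest pan-neuronal means, sgRosa replicates 1 and 2, were the lowest. The part of neuron content in these genes was not tested. Without sgRosa replicate 3 the median of the class was 0.70.

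The other genes with the smallest p were not in these class lists. The classes are chosen lists and need not hold every gene of a compartment. Dnajc18 was at 206, 391 and 292 CPM in sgRosa and 446, 505 and 522 CPM in sgEgfr, and the groups did not overlap. Its log2 fold change was 0.73 (SE 0.30, edgeR adjusted p = 0.781), with a range of 0.54 to 1.02 as each library was left out. Hspa4l, an HSP110 family member related to Hsph1, was at 59.3, 103 and 107 CPM in sgRosa and 133, 130 and 162 CPM in sgEgfr, again without overlap. Its log2 fold change was 0.66 (SE 0.28, adjusted p = 0.781) and ranged from 0.46 to 0.81. Dnajc21, a factor of ribosome assembly, had a mean of 11.2 ± 1.99 against 16.3 ± 3.41 CPM (sgRosa against sgEgfr; SD, n = 3 each), and its groups overlapped.

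On the lower side, Dnajc4 was at 19.7, 15.9 and 15.3 CPM in sgRosa and 11.9, 11.8 and 8.18 CPM in sgEgfr. The groups did not overlap, and the log2 fold change was -0.66 (SE 0.27, edgeR adjusted p = 0.781), with a range of -0.75 to -0.49 as each library was left out. Dnajc17, a splicing-associated gene near the floor of detection, was at 7.31, 5.85 and 5.94 CPM in sgRosa and 5.54, 2.23 and 4.29 CPM in sgEgfr (log2 fold change -0.66, SE 0.41). That value was -0.34 without sgEgfr replicate 2 and -0.995 without sgEgfr replicate 1. Dnajc9, which chaperones histones, had a mean of 33.7 ± 6.37 against 26.1 ± 4.19 CPM (sgRosa against sgEgfr; SD, n = 3 each), and its log2 fold change of -0.37 (SE 0.24) was -0.18 without sgRosa replicate 1. The small heat shock genes Hspb6 and Hspb8 had log2 fold changes of -0.47 (SE 0.44) and -0.36 (SE 0.25), the groups of Hspb8 not overlapping, and 3 others of their class were not tested.

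**Figure D4:**
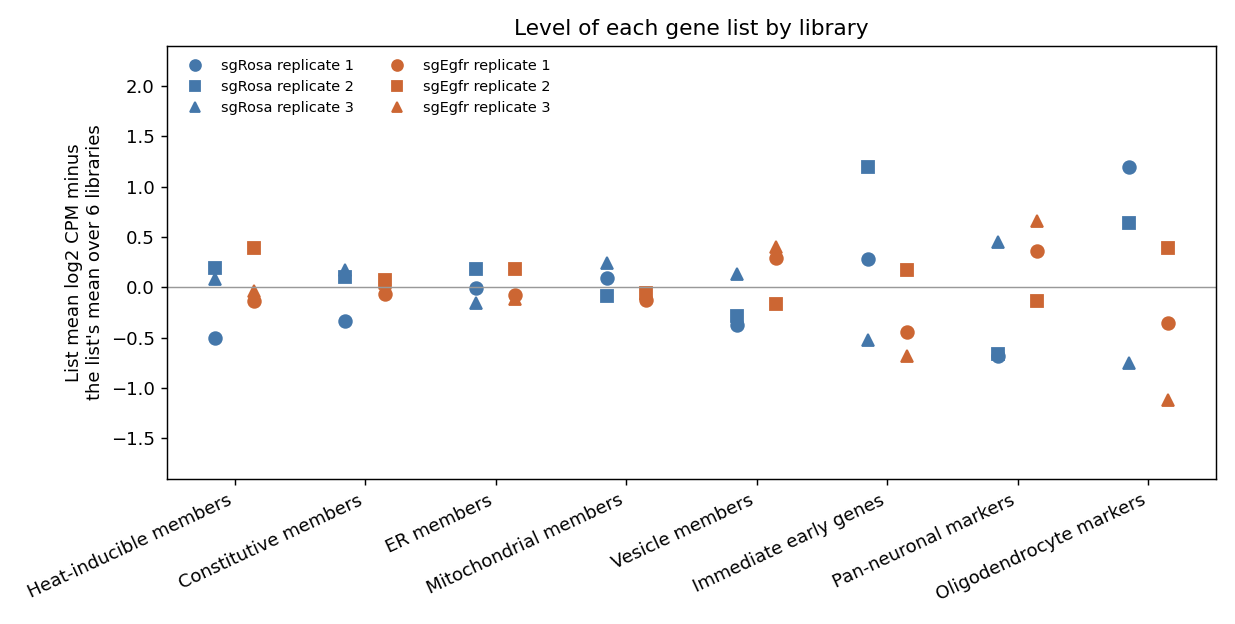
Mean log2 CPM of each gene list in each library, minus the mean of that list over the 6 libraries (vertical axis), for sgRosa (blue) and sgEgfr (orange). The chaperone classes vary less between libraries than immediate early genes (7.42 to 9.30 log2 CPM before centring) and oligodendrocyte markers (9.18 to 11.50), and sgRosa replicate 1 is the lowest library for the inducible and the constitutive class.

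The genes were also grouped by motifs in their promoters. A heat shock element was searched as GAA, TTC and GAA with 2 free bases between each, and the endoplasmic reticulum stress element as CCAAT and CCACG with 9 free bases between them, each with its reverse complement, in the 250 bases before to 50 after each start (RefSeq, GRCm38.p6, 60 of the 75 genes matched). These strict forms allow no mismatch, and the 2 motifs share no core. The heat shock element occurred in 4 of the 60 genes, in 0.662% of all genes with a window and in 0.603% of all 32851 windows. The stress element occurred in 3 of the 60, in 0.137% of all genes with a window and in 0.119% of windows. The matches mark which of the 60 searched genes carry these strict letters. They are shown with their flanks in the direction of the gene, with the motif in capitals. The other 15 genes, among them Hsp90aa1, Hsp90ab1, Hspa8, Hspa9, Dnajc5 and Dnajc18, had no window and were not searched. Looser forms of either element were not searched. The windows of Hspd1, Hspe1 and Hsp90b1 hold 2 matches each, of which 1 is in capitals. In Hspd1 and Hspe1 the other match overlaps it on the other strand, and its first bases are printed in lower case. The other match of Hsp90b1 is not shown. Relative to the start, the printed match of Hsph1 begins at 36 and so lies after the start. The other printed matches lie before it, with first bases from -139 (Hspd1) to -46 (Dnajb6).
Hsph1, heat shock element, chr5:149636287-149636308, minus strand: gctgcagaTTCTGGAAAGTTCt
Dnajb6, heat shock element, chr5:29735844-29735872, plus strand: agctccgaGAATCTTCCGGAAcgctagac
Hspd1, heat shock element, chr1:55088051-55088079, minus strand: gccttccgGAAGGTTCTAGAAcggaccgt
Hspe1, heat shock element, chr1:55088056-55088084, plus strand: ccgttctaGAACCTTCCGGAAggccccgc
Hspa5, stress element, chr2:34772020-34772048, plus strand: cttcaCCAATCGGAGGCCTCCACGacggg
Hsp90b1, stress element, chr10:86705528-86705556, minus strand: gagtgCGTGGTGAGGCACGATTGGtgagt
Dnajc3, stress element, chr14:118937822-118937850, plus strand: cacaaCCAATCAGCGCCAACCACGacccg

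The stretches of Hspd1 and Hspe1 overlap and hold the same element, since these genes are transcribed away from each other from a shared promoter. The heat shock elements of the 4 genes are therefore not all separate sites. The 4 genes with the heat shock element had log2 fold changes of 0.43 (Hsph1), 0.35 (Dnajb6), -0.059 (Hspd1) and -0.075 (Hspe1), 2 in each direction. The 3 genes with the stress element had 0.26 (Hspa5), 0.015 (Hsp90b1) and -0.11 (Dnajc3). No gene with either motif had separated groups, where the share over all tested genes was 13.4%. With so few genes this is no result about the motifs. The windows of Hspa1a, Hspa1b and Dnajb1 hold no match to these letters.

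Partners of the chaperones outside the symbol patterns were examined in the same fit. Of 28 heat shock factors, exchange factors and co-chaperones tested, 0 passed by edgeR, 12 had positive and 16 negative log2 fold changes (median -0.040), and 2 had an unadjusted p under 0.05, near the 6.16% over all tested genes. Hsf1, the master regulator of the heat shock response, was at 36.6, 33.4 and 27.7 CPM in sgRosa and 21.8, 26.3 and 21.0 CPM in sgEgfr. All sgEgfr libraries lay below all sgRosa libraries, with a log2 fold change of -0.49 (SE 0.22, adjusted p = 0.781). Its relative Hsf2 was at 18.6, 34.7 and 18.5 CPM in sgRosa and 33.9, 46.0 and 48.7 CPM in sgEgfr, a log2 fold change of 0.85 (SE 0.31, adjusted p = 0.781) with overlapping groups. The exchange factor gene Bag4 had a log2 fold change of 0.62 (SE 0.27).

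Of the 8 subunits of the TRiC chaperonin, which folds actin and tubulin, 0 passed and 5 were negative (median -0.096), with Cct3 at 47.2, 45.5 and 42.7 CPM in sgRosa and 25.0, 30.6 and 37.0 CPM in sgEgfr (log2 fold change -0.55, SE 0.22, edgeR adjusted p = 0.781). Of the 20 genes of the unfolded protein response 0 passed and 12 were negative (median -0.039), among them the disulfide isomerase genes Pdia3 (-0.66, SE 0.29) and Pdia4 (-0.54, SE 0.26) and the exchange factor gene of BiP, Sil1 (-0.49, SE 0.23). All 10 immediate early genes were negative (median -0.73), and 0 passed; Dusp1, Fos and Jun, with the smallest p, had log2 fold changes of -0.96, -1.33 and -0.99 and overlapping groups.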

How the data were processed

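RNA-seq libraries of amygdala neurons (3 sgRosa, 3 sgEgfr) were prepared from 5 ng of RNA. The authors deposited raw gene counts; per the submitters' processing notes, fastp 0.23.2, STAR 2.7.5c and featureCounts 2.0.1 were used with mm10, and edgeR 3.42.4, FastQC 0.11.9 and MultiQC 1.11 are also named. Not given in the sources used here: annotation, strand setting and how reads with several matches were handled. The 6 library columns of the series table equalled the library tables, and 3 other columns were not used.

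Counts were tested with edgeR 4.0.16 (R 4.3.3; filterByExpr with minimum count 10 and total 15, TMM, quasi-likelihood test), and p-values were adjusted by Benjamini-Hochberg over 13159 genes. Log2 CPM used a prior count of 2, and the biological coefficient of variation was 0.355. SEs of single genes are the log2 fold change over the root of F, and none is given for a log2 fold change under 0.01 in size. SEs of inducible minus constitutive and of the log2 ratios come from the variances among the 3 libraries of each group. DESeq2 1.42.0, limma-voom with quality weights (limma 3.58.1), other scalings, no filter and a replicate block were alternatives. So were each library left out, the 2 libraries with choroid plexus RNA left out and a pan-neuronal covariate. Exon lengths and positions came from GENCODE vM21. Genes were named by a rule: Egfr, the inducible class, 9 major chaperones, up to 6 per direction with the smallest p and a mean of at least 1 log2 CPM, and up to 3 per outside list. The members and lists were chosen with earlier results of these data known.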

Additional observations from a re-analysis of the deposited data

How the results depend on the processing

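No heat shock or DNAJ gene with an adjusted p passed under any alternative run (0 in each; by DESeq2 11 of 64 had none, and without both libraries with choroid plexus RNA 62 were tested; the smallest adjusted p was 0.122, without sgRosa replicate 3). Over all genes 0 passed, also with each library left out, except by DESeq2, which called 25. With each library left out in turn the median log2 fold change ranged from -0.099 to 0.063 over all tested members, 0.031 to 0.38 for inducible, -0.085 to 0.23 for constitutive, -0.16 to 0.14 for endoplasmic reticulum, -0.20 to -0.053 for mitochondrial, 0.17 to 0.70 for vesicle and -0.67 to -0.27 for small heat shock genes. Inducible minus constitutive ranged from -0.015 to 0.19, the Hsp90aa1 to Hsp90ab1 log2 ratio from 0.13 to 0.30 and the Hspa1a+Hspa1b to Hspa8 log2 ratio from -0.0028 to 0.46. Without both libraries with choroid plexus RNA the medians were 0.12 (all members), 0.36 (inducible), 0.32 (constitutive) and 0.64 (vesicle), with Hspd1 at 0.14 and Hspe1 at 0.27. With the pan-neuronal covariate they were -0.13 (all members), -0.24 (mitochondrial) and -0.016 (vesicle), and Hspa1a was at 0.14, Dnajb4 at -0.11, Hspb1 at 0.38, Dnaja4 at -0.16, Hsp90b1 at -0.081 and Dnajc5 at -0.14. By limma-voom with quality weights the vesicle median was 0.65, Hspd1 0.058 and Hspe1 0.040. Signs also turned without sgRosa replicate 1 (Dnajb4 -0.098, Hspb1 0.34, Dnaja4 -0.22, Hspa5 -0.024, Hsp90b1 -0.074), without sgRosa replicate 3 (Hspd1 0.14, Hspe1 0.16), without sgEgfr replicate 1 (Dnajb4 -0.042, Hspe1 0.023), without sgEgfr replicate 2 (Dnaja4 -0.022) and without sgEgfr replicate 3 (Hspa1a 0.012). Over the single libraries left out, Hspa1a ranged down to -0.40 and Hspb1 to -0.85, and Dnaja4 up to 0.59 and Hspa5 to 0.54. The causes were not tested. With a replicate block 0 genes passed and 4 of 64 members had an unadjusted p under 0.05 (10% of all tested genes); correlations of same-numbered libraries were -0.028, 0.48 and 0.29, so the numbers were not taken to pair them, and not every library correlated best with its own number. Depth limits the low genes: 3 counts correspond to 0.270 to 1.25 CPM.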
